A study of Mus musculus with 23 samples.

Results

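The genes described here encode 9 core proteins that build iron-sulfur clusters in mitochondria: Nfs1, Lyrm4, Iscu, Hscb, Glrx5, Isca1, Isca2, Nfu1 and Bola3. They were taken by name from the gene counts of mouse embryonic stem cells (ESCs), which list 37310 genes. All 9 were found once in the annotation and all 9 passed the filter on low counts, as 9 of 14346 genes tested. Iron-sulfur clusters are small inorganic cofactors on which electron transfer, the tricarboxylic acid (TCA) cycle, lipoic acid synthesis and several DNA repair and replication enzymes depend. In the mitochondrial matrix a desulfurase takes sulfur from cysteine, a scaffold protein joins it to iron, a chaperone system releases the new cluster, and late-acting factors convert it to the larger cluster type and hand it to recipient proteins. The pathway is regarded as a housekeeping function, and its loss impairs respiration and disturbs cellular iron balance.

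Transcripts were measured by RNA sequencing in 3 groups of 3 libraries, and binding of the zinc finger protein Zbtb11 was measured by chromatin immunoprecipitation sequencing (ChIP-seq). Every RNA sample derived from the ESC line E14 and was collected after 48 h. The EtOH control was Zbtb11 lox/lox Rosa26 ERt2-Cre cells given ethanol, the carrier. The Zbtb11 KO was the same line given 250 nM 4-hydroxytamoxifen (4OHT), which activates the tamoxifen-dependent Cre recombinase and deletes exon 3 of Zbtb11. The 4OHT control was Zbtb11 wt/wt Rosa26 wt cells, without Cre, given 250 nM 4OHT. The lox/lox line was isolated from single-cell colonies before Cre was inserted at the Rosa26 locus, so both of its groups rest on one clonal line. The EtOH control and the 4OHT control therefore differed in cell line, genotype and agent, and these cannot be told apart. The Zbtb11 KO and the 4OHT control shared the agent but differed in cell line and genotype as well as in the deletion. The paper calls the replicates biological, and the labels do not say whether they were separate cultures. The p-values therefore measure the spread between these samples, which may be partly technical.

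The RNA libraries held 14301457 to 23876604 counts assigned to genes. Replicate 1 of each group stood apart: the biological coefficient of variation shared by all genes was 17.4% with it and 6.8% without it, so calls are given with and without that replicate where they change. Zbtb11 itself was not followed, because genes were looked up by name only and the annotation used for the counts has no gene of that name. The deletion was therefore not checked here. ESC markers were abundant in every library, with Pou5f1 at 616 to 819 and Nanog at 448 to 681 CPM (counts scaled to library size). Marker levels use library size alone, and CPM levels in all later paragraphs were also scaled by edgeR's TMM factors. The 7 ESC markers had summed levels of 3213 to 3542 CPM (EtOH control), 3249 to 3553 CPM (Zbtb11 KO) and 3323 to 3647 CPM (4OHT control). The sums hide opposite differences, since in the 4OHT control against the EtOH control the log2 fold change was -0.36 for Nanog, -0.44 for Utf1 and 0.44 for Klf4. The 10 markers of other cells summed to 194 to 237, 210 to 246 and 189 to 228 CPM in the same order, mostly Pecam1, which ESCs also express, and the leukocyte marker Ptprc reached at most 0.0991 CPM. In bulk samples fewer cells of a type and less RNA per cell cannot be told apart.

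The sulfur donor and the scaffold form the core of the pathway. Positions are those of the GENCODE vM1 annotation on mm9. Nfs1 (ENSMUSG00000027618.10, chr2:155904665-155969922, minus strand) is the cysteine desulfurase that supplies the sulfur. It had 44.1, 42.8 and 42.2 CPM in EtOH control replicates 1 to 3, 43.3, 44.1 and 43.9 CPM in the Zbtb11 KO, and 32.6, 28.5 and 26.4 CPM in the 4OHT control. The 6 lox/lox libraries lay within a narrow band and all 3 libraries of the 4OHT control lay below it. Lyrm4 (ENSMUSG00000046573.6, chr13:36070666-36209226, minus strand), also known as Isd11, is the small partner that stabilises the desulfurase. Its levels were 10.5, 12.3 and 12.1 CPM in the EtOH control, 11.2, 11.8 and 10.9 CPM in the Zbtb11 KO and 10.0, 10.7 and 10.4 CPM in the 4OHT control. Here the groups lay close together, and the 4OHT control overlapped the EtOH control but not the Zbtb11 KO. Iscu (ENSMUSG00000025825.6, chr5:114222757-114228297, plus strand) is the scaffold on which the cluster is first put together. It had 28.8, 34.1 and 30.9 CPM in the EtOH control, 28.1, 30.8 and 30.4 CPM in the Zbtb11 KO and 21.5, 27.0 and 25.9 CPM in the 4OHT control, whose libraries lay below all 6 others.

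Transfer of the new cluster depends on Hscb, the co-chaperone that brings Iscu to the mitochondrial Hsp70 Hspa9, and on Glrx5, a monothiol glutaredoxin that receives the cluster. Hscb (ENSMUSG00000043510.6, chr5:111258089-111268796, minus strand) had 19.2, 11.9 and 10.96 CPM in the EtOH control, 15.4, 11.4 and 11.1 CPM in the Zbtb11 KO and 15.2, 10.5 and 8.80 CPM in the 4OHT control. Replicate 1 was the highest library of each group, at 1.68, 1.37 and 1.57 times the mean of the other replicates, and the groups overlapped. Of all genes tested, 10.1% showed replicate 1 above the others in all 3 groups by at least the smallest of these ratios. Glrx5 (ENSMUSG00000021102.3, chr12:106270899-106279120, plus strand) had 22.8, 31.4 and 26.3 CPM in the EtOH control, 26.3, 25.4 and 33.1 CPM in the Zbtb11 KO and 23.1, 25.5 and 29.8 CPM in the 4OHT control. Its 3 groups overlapped.

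The late-acting members handle the larger clusters. Isca1 and Isca2 are A-type carriers that act together in making them. Isca1 (ENSMUSG00000044792.6, chr13:59856770-59871171, minus strand) had 23.3, 25.8 and 27.8 CPM in the EtOH control, 27.8, 26.5 and 25.5 CPM in the Zbtb11 KO and 26.1, 28.7 and 30.2 CPM in the 4OHT control. It was the only member whose mean was highest in the 4OHT control, although its groups overlapped. Isca2 (ENSMUSG00000021241.6, chr12:86114220-86116039, plus strand) had 13.03, 13.4 and 12.9 CPM in the EtOH control, 11.2, 12.9 and 9.69 CPM in the Zbtb11 KO and 10.2, 8.58 and 9.64 CPM in the 4OHT control. The EtOH libraries of Isca2 lay above all others, the nearest Zbtb11 KO library by a margin smaller than the spread within either group. Nfu1 and Bola3 pass the larger clusters to recipients that include lipoic acid synthase. Nfu1 (ENSMUSG00000029993.10, chr6:86959230-86978455, plus strand) had 56.9, 70.9 and 72.5 CPM in the EtOH control, 58.3, 72.1 and 68.2 CPM in the Zbtb11 KO and 50.6, 57.1 and 59.2 CPM in the 4OHT control. Replicate 1 was its lowest library in every group, and the 4OHT control overlapped the other groups only through those libraries. Bola3 (ENSMUSG00000045160.8, chr6:83299141-83310130, plus strand) had 16.0, 15.6 and 18.8 CPM in the EtOH control, 15.2, 16.6 and 16.2 CPM in the Zbtb11 KO and 11.2, 14.0 and 14.0 CPM in the 4OHT control. All 3 libraries of the 4OHT control lay below the other 6.

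**Figure D1:**
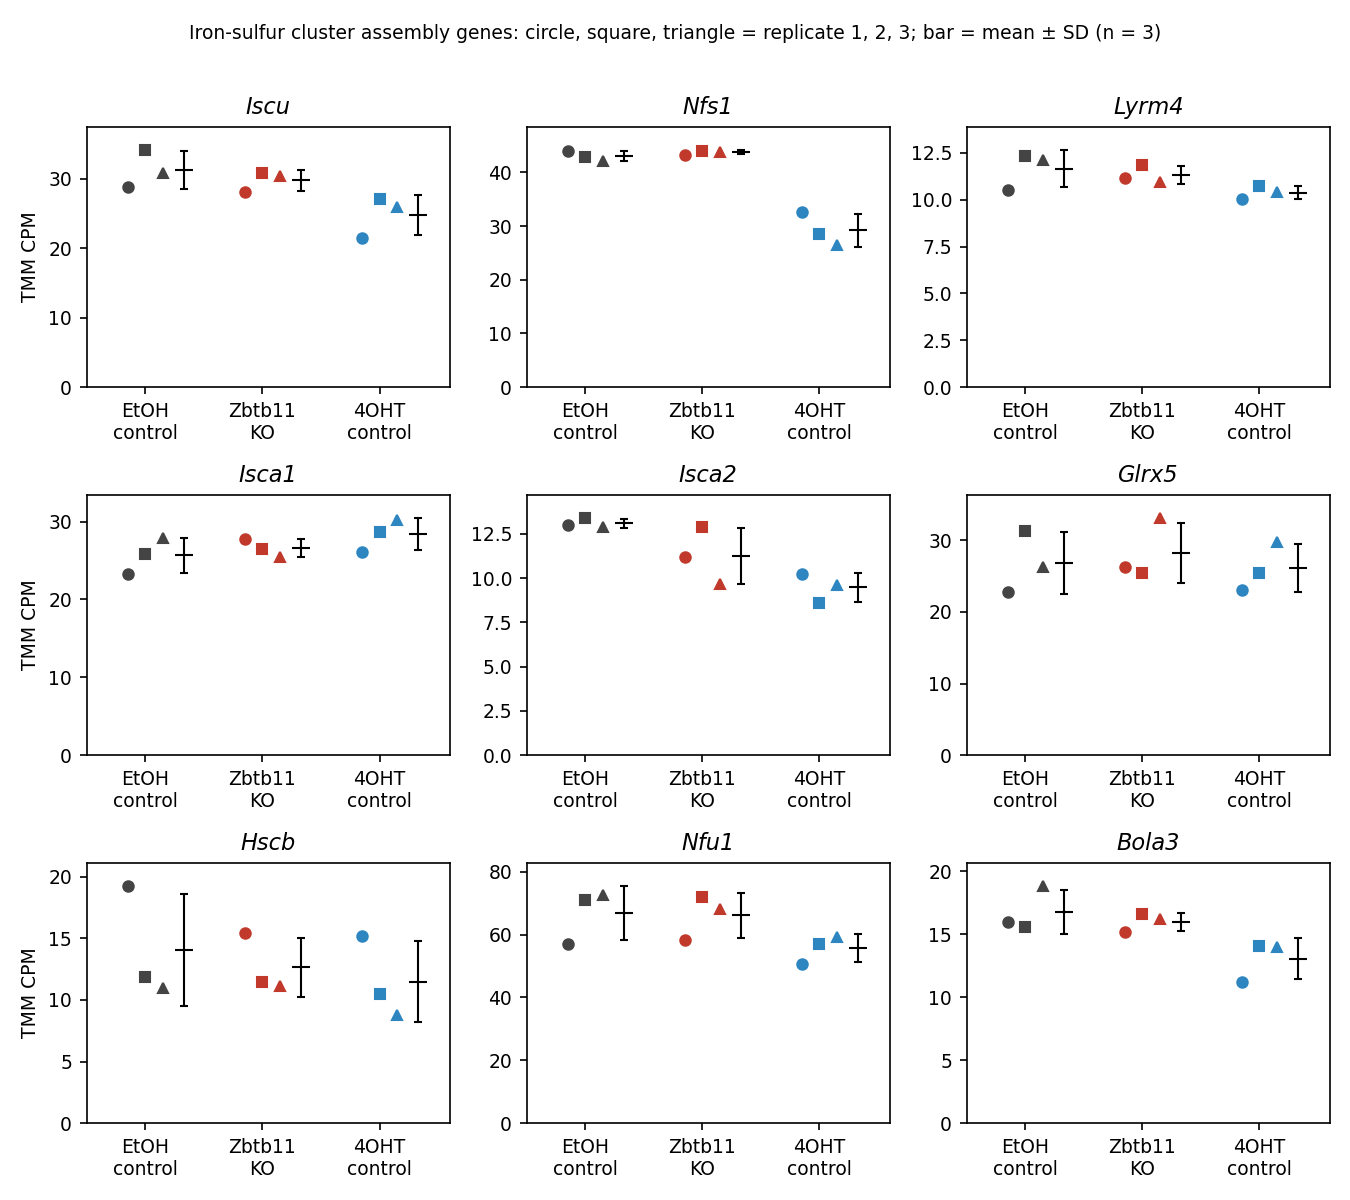
Normalised CPM (vertical axes, from 0) of the 9 iron-sulfur cluster assembly genes in each library of the 3 groups (horizontal axes), with the mean and SD of each group. Nfs1 sits at 42.2 to 44.1 CPM in the EtOH control and Zbtb11 KO libraries and at 26.4 to 32.6 CPM in the 4OHT control, whereas Hscb is set mainly by replicate 1.

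Levels of different genes were compared only per kilobase of annotated exon. That length joins the exons of all annotated transcripts, such as 3211 bases from 9 for Bola3 and 1515 bases from 1 for Lyrm4. It can exceed the length of the transcripts expressed, which was not measured, so the order depends in part on the annotation. In the EtOH control Nfu1 was highest, at 32.1 ± 4.15 CPM per kilobase (SD, n = 3), followed by Glrx5 at 28.9 ± 4.61. Hscb at 15.5 ± 5.01, Isca2 at 15.1 ± 0.289 and Iscu at 14.4 ± 1.23 came next and did not differ beyond their spread, nor did Nfu1 from Glrx5. Nfs1 at 10.3 ± 0.226, Lyrm4 at 7.69 ± 0.647, Isca1 at 5.98 ± 0.531 and Bola3 at 5.23 ± 0.55 CPM per kilobase were each separated from the next by more than the larger SD. The order was alike in the Zbtb11 KO apart from neighbours within the spread. In the 4OHT control Nfs1 stood at 6.97 ± 0.749 CPM per kilobase and no longer differed beyond the spread from Lyrm4 at 6.85 ± 0.225, nor Lyrm4 from Isca1 at 6.61 ± 0.483.

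Zbtb11 peaks were then sought at the promoters of the 9 genes, from 2 kb upstream to 500 bases downstream of the annotated start (mm9). Peaks came from 8957 regions listed for the Zbtb11 antibody in wild-type E14 cells, 9350 regions listed for FLAG in a line with tagged endogenous Zbtb11, and a table of read coverage over 7500 consensus peaks. Nfs1 and Iscu had a consensus peak, 2 of 9 members against 28.1% of all genes tested. Both lists together named 4 of 9 members, adding Isca1 and Glrx5, against 29.7% of all genes tested. No member had a peak listed for FLAG in untagged control cells, as 0.216% of all genes tested did. Lyrm4, Isca2, Hscb, Nfu1 and Bola3 had no listed peak in this window, which was set from the outermost annotated start. Hscb has 4 annotated transcript starts over 4882 bases, Nfu1 4 over 767 bases and Bola3 8 over 4166 bases. Of 7833 Zbtb11 peaks that overlapped a FLAG-Zbtb11 peak, 305 were without an entry in the coverage table. Without such an entry at Isca1 and Glrx5 the strength of their peaks could not be read, and whether binding there is weak was not tested.

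The Nfs1 peak covered its start (chr2:155969349-155970548), with its centre 26 bases upstream. Its normalised read coverage was 172.3, 169.9, 168.3 and 161.4 in the 4 Zbtb11 libraries, a mean of 168.0 ± 4.66 (SD, n = 4), and 194.7, 212.0 and 172.9 in the 3 FLAG-Zbtb11 libraries, a mean of 193 ± 19.6 (SD, n = 3). By the Zbtb11 mean it lay above the upper quartile of all consensus peaks, 147.7, with 78.3% of them weaker. It lay below 309, the upper quartile plus 1.5 times the interquartile range. Neither consensus peak at a member's promoter lay above that limit, while 5.69% of all genes tested had one that did. For Isca1 and Glrx5, which have no entry in the coverage table, this could not be read. The Iscu peak lay upstream of its gene (chr5:114221372-114222571), from position -1385 to position -186 relative to the start. Its coverage was 46.7, 86.6, 89.6 and 67.4 in the Zbtb11 libraries, a mean of 72.6 ± 19.9 (SD, n = 4), and 74.4, 93.6 and 83.5 in the FLAG-Zbtb11 libraries. By the Zbtb11 mean this was the middle of the distribution of all consensus peaks, whose median was 71.3, with 50.7% of peaks weaker. Single Zbtb11 libraries had 30.0 to 58.5% of peaks weaker, and FLAG-Zbtb11 libraries 55.9 to 64.8%. The 3793 consensus peaks at promoters were stronger, with a median of 96.8. By the same mean, 37.6% of these were weaker than the Iscu peak and 69.1% weaker than the Nfs1 peak. Every Zbtb11 library was higher at Nfs1 than at Iscu.

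**Figure D2:**
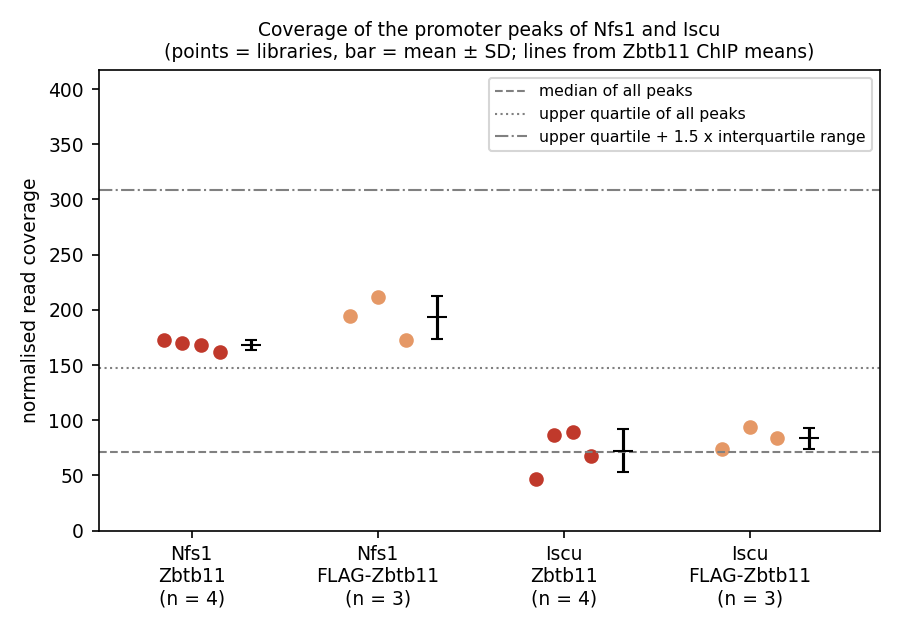
Normalised read coverage (vertical axis, from 0) of the consensus peaks at the promoters of Nfs1 and Iscu, one point per ChIP-seq library, with mean and SD and with lines at the median, the upper quartile and the upper limit over all 7500 peaks. The lines are from the means of the Zbtb11 libraries. Nfs1 lies between the upper quartile and the limit in all 7 libraries, and Iscu lies around the median.

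At Isca1 the Zbtb11 peak covered the start (chr13:59870507-59872112), and at Glrx5 it ended 155 bases upstream (chr12:106269251-106270744). In both the FLAG-Zbtb11 peak overlapped it. Several of these regions hold a start of another gene nearer to the peak centre. The listed Zbtb11 antibody peak upstream of Iscu was centred 28 bases from the start of Sart3, a splicing factor recycling protein. For the Iscu consensus peak that distance was 313 bases. The listed Zbtb11 peak at Glrx5 was centred 438 bases from the small Cajal body RNA gene Scarna13. That at Isca1 was centred 17 bases from the long non-coding RNA Etohd2. These genes were named after the peaks were seen. At Nfs1 the listed FLAG-Zbtb11 peak was centred 8 bases from the start of Romo1, while the consensus peak was nearest to the start of Nfs1. Sart3 had 94.8, 110.4 and 115 CPM in the EtOH control, 91.1, 105 and 124 CPM in the Zbtb11 KO and 103, 105 and 124 CPM in the 4OHT control, with full overlap of the groups. The log2 fold change in the Zbtb11 KO against the EtOH control was 0.00 for Sart3, 0.05 for Scarna13 and -0.30 (SE 0.271) for Etohd2, which had 14 to 36 counts per library, each with an adjusted p of 1 (edgeR).

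**Figure D3:**
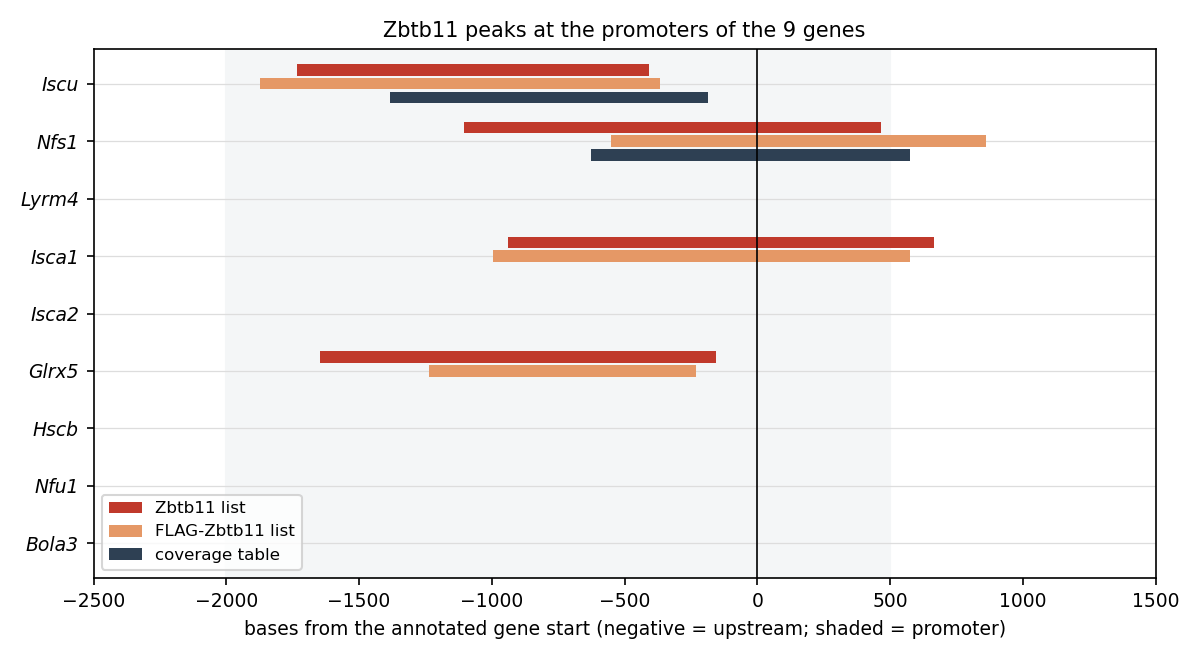
Position of the listed Zbtb11 peaks, FLAG-Zbtb11 peaks and coverage-table peaks relative to the annotated start of each of the 9 genes (horizontal axis, bases, negative upstream), with the promoter window shaded. Peaks cover the start at Nfs1 and Isca1, lie upstream at Iscu and Glrx5, and are not listed in that window at the other 5 genes.

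The promoter sequences were searched for the ETS-type motif CCGGAAG, the core bound by NRF-2/GABP, on both strands from 250 bases before to 50 bases after the start. It was found at 3 of 9 members, Nfs1, Isca1 and Isca2, against 16.2% of 13351 promoters of protein-coding genes tested. The consensus motif of NRF1, searched the same way, was found at none of the 9, against 1.89% of the same promoters, so no matches of the motifs overlapped. Of the 300-base centres of consensus peaks, 29.4% held the ETS motif, and 41.1% of those at promoters did. The stretches below carry the matches or, for Nfu1, show a promoter without a match or a peak. They are written in the direction of each gene, from the mm9 reference, and capitals mark the motif or its complement. The Nfs1 stretch (chr2:155969909-155969938, minus strand, from 16 bases before the start into the exon, all of it also exon of Romo1) holds 2 matches. The Iscu stretch is the middle of its peak (chr5:114221822-114222121, plus strand, outside annotated exons). The Isca1 stretch (chr13:59871348-59871377, minus strand) lies in an exon of Etohd2. The Isca2 (chr12:86114070-86114219, plus strand) and Nfu1 (chr6:86959080-86959229, plus strand) stretches are the 150 bases before the start and overlap no annotated exon.
Nfs1: gCTTCCGGagcacagcgcagttaCTTCCGG
Iscu: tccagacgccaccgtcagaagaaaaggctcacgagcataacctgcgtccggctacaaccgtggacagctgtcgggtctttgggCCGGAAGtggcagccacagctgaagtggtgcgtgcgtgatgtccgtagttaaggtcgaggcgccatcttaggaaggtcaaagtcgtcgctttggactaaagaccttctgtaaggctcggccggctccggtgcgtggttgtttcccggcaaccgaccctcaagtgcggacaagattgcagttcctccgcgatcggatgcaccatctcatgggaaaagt
Isca1: ccgtgtccccaCTTCCGGggggtctgtcgt
Isca2: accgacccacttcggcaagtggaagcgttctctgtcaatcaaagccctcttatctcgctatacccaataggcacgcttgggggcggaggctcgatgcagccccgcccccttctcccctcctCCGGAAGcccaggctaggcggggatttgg
Nfu1: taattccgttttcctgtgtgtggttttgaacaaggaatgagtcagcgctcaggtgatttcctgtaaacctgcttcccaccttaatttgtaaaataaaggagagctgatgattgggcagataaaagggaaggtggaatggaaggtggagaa
With the start as position 0, the matches at Nfs1 lay from position -15 to -9 and from 7 to 13, inside the consensus peak, and read on the opposite strand. The match in the Iscu peak began at position -852, outside the promoter window searched. That at Isca1 began at position -195, inside the Zbtb11 peak, and that at Isca2 began at position -29, at a promoter with no listed peak. The shares of G and C in the 9 windows ran from 45.0% at Nfu1 and 51.7% at Bola3 to 73.3% at Lyrm4, around a median of 60.0% over all promoters.

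The Zbtb11 KO was compared with the EtOH control to ask which transcripts follow deletion of the factor. None of the 9 genes passed the threshold of an adjusted p under 0.05 (edgeR), where 0.899% of all genes did and 121 of those 129 were lower. None of the 9 had an unadjusted p under 0.05, in edgeR without the block, in edgeR with it or in DESeq2, where 2.8%, 9.92% and 2.68% of all genes did. With the replicate number as a block 0 of 9 passed, against 2.25% of all genes. Without replicate 1 again 0 of 9 passed, against 1.5%. The 2 genes with a consensus peak gave log2 fold changes of 0.02 (SE 0.088) for Nfs1 and -0.07 (SE 0.110) for Iscu, each with an adjusted p of 1. Isca1 and Glrx5, with a peak in both lists, gave 0.05 (SE 0.098) and 0.07 (SE 0.156). The 5 without a listed peak gave -0.04 for Lyrm4, -0.22 for Isca2, -0.15 for Hscb, -0.01 for Nfu1, which turned to 0.03 when scaled by library size alone, and -0.07 for Bola3. The median of the 9 was -0.04, and that of all genes was 0.00.

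Isca2 was the only member whose Zbtb11 KO libraries all lay below those of the EtOH control, as did those of 4.02% of all genes. Its log2 difference of -0.22 had a 95% interval from -0.52 to 0.08, and the blocked fit gave an adjusted p of 0.509 (edgeR). The 95% intervals give the range of differences that these libraries allow. For 8 members they lay between -0.52 and 0.43 on the log2 scale, folds of 0.699 to 1.34. The interval of Nfs1, the most precisely measured, ran from -0.18 to 0.22. That of Hscb ran from -0.75 to 0.46, a fold of 0.594 to 1.37, and was the widest.

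**Figure D4:**
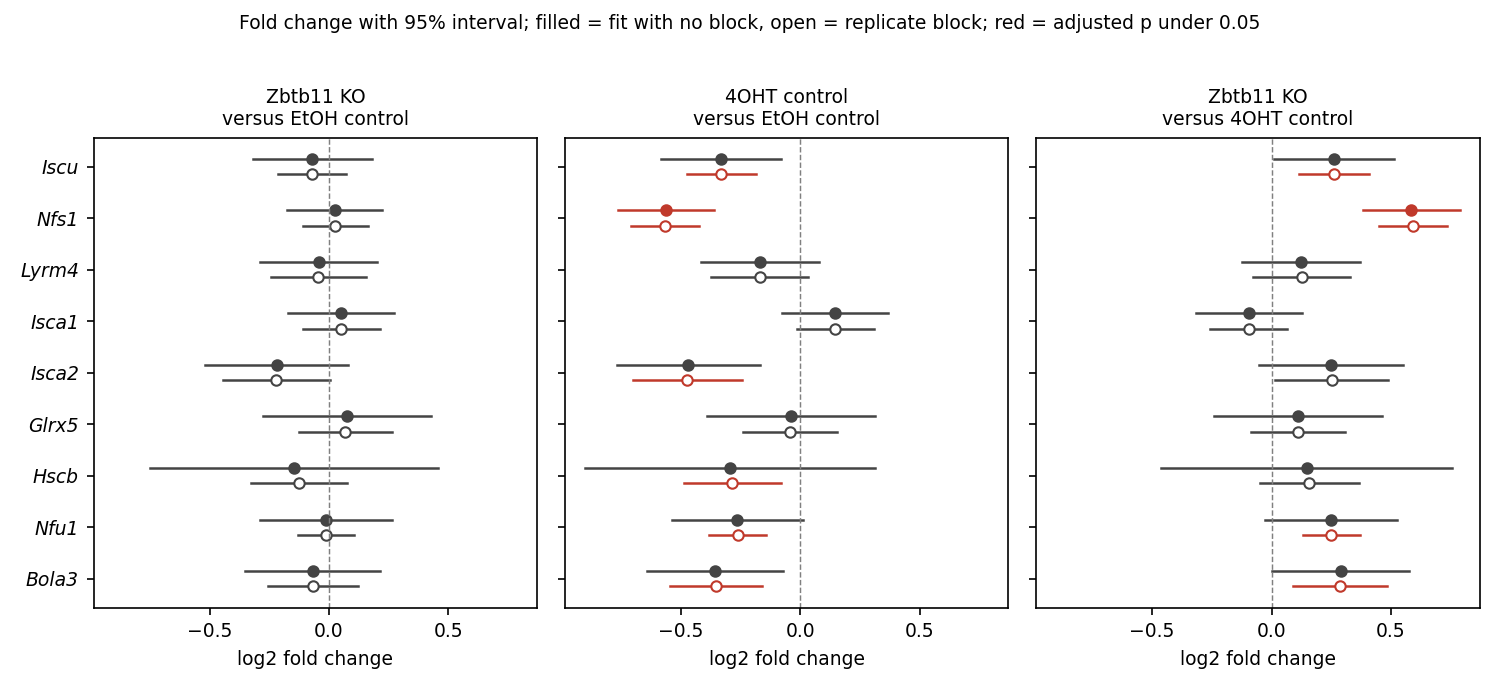
Log2 fold change (horizontal axes) of each of the 9 genes in the 3 comparisons, with 95% intervals, from the fit without a block (filled) and with the replicate block (open), in red where the adjusted p was under 0.05. All intervals of the Zbtb11 KO against the EtOH control include 0, and Nfs1 lies at -0.56 in the 4OHT control against the EtOH control and at 0.59 in the Zbtb11 KO against the 4OHT control.

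The 4OHT control, which the paper used to look for unspecific effects of the agent, was compared with the EtOH control. These groups also differ in cell line and genotype. Nfs1 was lower in the 4OHT control, at 29.2 ± 3.14 against 43.0 ± 0.947 CPM (SD, n = 3 each). Its log2 fold change was -0.56 (SE 0.089), a fold of 0.678 with a 95% interval from 0.589 to 0.779, and an adjusted p of 0.0121 (edgeR). It was the only member to pass, 1 of 9 lower against 2.01% of all genes lower and 4.06% in either direction. Of the alternatives tried, 8 kept the call. It was lost without replicate 2 (adjusted p = 0.469), without replicate 3 (adjusted p = 0.299) and in a fit of these 2 groups alone (adjusted p = 0.0608). Over all alternatives the adjusted p ran from 2.66e-07 to 0.469 and the log2 fold change stayed negative.

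The replicate block changed the calls of the other members. Under it 6 of 9 passed as lower, against 16.5% of all genes lower and 33.6% in either direction. Nfs1 gave -0.57 (adjusted p = 2.38e-06). Isca2 gave -0.47 (adjusted p = 0.00236, from 0.092 without the block and up to 0.784 over the alternatives) and was also called by DESeq2 (adjusted p = 0.0233). Iscu gave -0.33 (adjusted p = 0.00104, from 0.147 and up to 0.806). Bola3 gave -0.35 (adjusted p = 0.00575, from 0.17 and up to 0.731), Nfu1 -0.26 (adjusted p = 0.00141, from 0.305 and up to 0.948) and Hscb -0.28 (adjusted p = 0.0297, from 0.653 and up to 0.998). Lyrm4 at -0.17, Isca1 at 0.15 and Glrx5 at -0.04 passed in no alternative. The size of the differences moved little between the fits, while the SE of Hscb went from 0.269 to 0.098. Without replicate 1 the members passing were Nfs1, Isca2, Iscu and Nfu1, 4 of 9 against 8.22% of all genes lower. Those 4 also passed with the block and without replicate 1, where 13.5% of all genes were lower. Of the 7 ESC markers 0 passed in the same comparison without the block. Under the block 2 of 7 were lower and 3 of 7 higher, against 16.5% and 17% of all genes. Without replicate 1 these were 2 and 2, against 8.22% and 8.86% of all genes. The part of the ESC markers in the members' differences was not tested.

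Across the 9 genes the direction was mostly shared. In the fit without a block 8 of 9 had a lower level in the 4OHT control, against 49.9% of all genes, and Glrx5 turned to 0.11 without replicate 2. The median log2 fold change was -0.30, and that of all genes was 0.00. In all, 4 members, Iscu, Nfs1, Isca2 and Bola3, had all 3 libraries of the 4OHT control below all 3 of the EtOH control, as did 10.5% of all genes. These libraries differ in cell line, genotype and agent, which cannot be told apart.

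The Zbtb11 KO and the 4OHT control both received 4OHT. Nfs1 was higher in the Zbtb11 KO, at 43.8 ± 0.387 against 29.2 ± 3.14 CPM, a log2 fold change of 0.59 (95% interval from 0.38 to 0.79) and an adjusted p of 0.00514 (edgeR). It was 1 of 9 higher, against 2.73% of all genes higher and 6.45% in either direction. The call was lost without replicate 2 (adjusted p = 0.305) and without replicate 3 (adjusted p = 0.193), and the adjusted p ran from 3.68e-08 to 0.305 over the alternatives. With the replicate block 4 of 9 passed as higher, against 16.9% of all genes higher and 34.9% in either direction. Of the 7 ESC markers 0 passed without the block, and with it 4 were lower and 2 higher. The share of all genes lower with the block was 18.1%. The part of the ESC markers in the members' differences was not tested. The 4 members were Nfs1, Iscu (0.26, adjusted p = 0.00684, from 0.239 without the block and up to 0.744), Nfu1 (0.25, adjusted p = 0.00196, from 0.316 and up to 0.939) and Bola3 (0.29, adjusted p = 0.0223, from 0.256 and up to 0.82). Without replicate 1 Nfs1 and Nfu1 passed, 2 of 9 against 8.38% of all genes higher. In all, 4 members, Iscu, Nfs1, Lyrm4 and Bola3, had all Zbtb11 KO libraries above all of the 4OHT control, as did 11.1% of all genes. The 3 comparisons share libraries, so these values are not independent of those against the EtOH control.

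Exon sharing and copies of the genes could affect their counts. Of the 4188 exonic bases of Nfs1, 576 (13.8%) are shared with Cpne1 and 224 (5.35%) with Rbm12 on the same strand, and 148 with Romo1 on the opposite strand. Cpne1 had a log2 fold change of -0.03 (adjusted p = 0.916) and Rbm12 one of -0.01 (adjusted p = 0.98) in the 4OHT control against the EtOH control, beside -0.56 for Nfs1. Copies of at least 300 bases and 95% identity elsewhere in the genome were found for Iscu on chromosome 19 (Gm16437), for Isca1 on chromosome 13 (AK157302) and for Nfu1 on chromosome 15, where no gene is annotated. The annotated copies held 7 counts over the 9 libraries against 5239 for Iscu, and 1 count against 4886 for Isca1. Counts of these 3 genes are uncertain to the extent that reads mapping equally to a copy were dropped.

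Of the 9 genes, 5 start within 1 kb of another gene read in the opposite direction. The starts are 54 bases apart for Lyrm4 and Fars2, the mitochondrial phenylalanyl-tRNA synthetase, 147 for Nfs1 and Romo1, a mitochondrial membrane protein, and 155 for Isca1 and Etohd2. They are 158 bases apart for Isca2 and Npc2, a lysosomal cholesterol carrier, and 240 for Hscb and the checkpoint kinase Chek2. None of the 5 neighbours passed in the Zbtb11 KO against the EtOH control (edgeR, also with the block), where the only unadjusted p under 0.05 was 0.0418 for Fars2 under the block. Chek2 had 64.5, 66.4 and 67.5 CPM in the EtOH control, 62.4, 66.2 and 58.6 CPM in the Zbtb11 KO and 41.8, 46.9 and 46.6 CPM in the 4OHT control. The 4OHT control lay below both other groups, with a log2 fold change of -0.55 (SE 0.081, adjusted p = 0.00878) against the EtOH control, while Hscb on the other side of that promoter gave -0.30 (adjusted p = 0.653). Romo1, which shares the Nfs1 peak, gave -0.22 (SE 0.139, adjusted p = 0.489) there and 0.10 in the Zbtb11 KO. In the 4OHT control against the EtOH control Npc2 gave -0.33 (adjusted p = 0.511, and 0.000262 with the block) and Fars2 -0.25 (adjusted p = 0.322, and 0.0391 with the block). In the Zbtb11 KO against the 4OHT control Romo1 gave 0.31 (adjusted p = 0.258, and 0.0227 with the block), Npc2 0.35 (adjusted p = 0.471, and 0.000178 with the block) and Fars2 0.04.

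Over the 9 libraries the mean of the members' standardised log2 CPM was -0.06, 0.69 and 0.64 in the EtOH control, 0.16, 0.44 and 0.20 in the Zbtb11 KO and -1.01, -0.58 and -0.47 in the 4OHT control. The 3 lowest libraries were those of the 4OHT control. Between pairs of members Pearson's r ran from -0.74 for Isca1 and Hscb to 0.89 for Lyrm4 and Nfu1, as a description of 9 libraries that share replicate number and depth. The 3 genes outside the set with the highest r to that mean were Hnrnpf (0.990), an RNA-binding splicing regulator, Dock5 (0.985), a guanine nucleotide exchange factor, and Tmem111 (0.983). Their log2 fold changes in the 4OHT control against the EtOH control were -0.49, -0.67 and -0.53, a direction that their choice by likeness to this mean fixes.

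Further genes of the pathway and its clients were described as lists. Of 16 other genes of the mitochondrial machinery, among them frataxin and the ferredoxins, 0 passed in any comparison without a block (edgeR), with median log2 fold changes of 0.03 in the Zbtb11 KO and -0.01 in the 4OHT control, each against the EtOH control. With the block 0 of 16 passed in the Zbtb11 KO, against 2.25% of all genes, and 4 of 16 in the 4OHT control, a share below the 33.6% of all genes. Of the 4, Bola1 (-0.42, adjusted p = 0.0024) and Ndufab1 (-0.21) were lower, and Abcb8 (0.27) and A230051G13Rik, the mouse Iba57 gene (0.41), were higher. Bola1 is a relative of Bola3, and its levels were 12.1, 16.4 and 16.7 CPM in the EtOH control and 10.6, 10.6 and 12.8 CPM in the 4OHT control, which overlapped. Of 11 genes of cytosolic cluster assembly, 0 passed without a block in any comparison, and with the block 0 passed in the Zbtb11 KO and 4 in the 4OHT control, each against the EtOH control, and 3 in the Zbtb11 KO against the 4OHT control. Of all genes 33.6% and 34.9% were called with the block in these comparisons, shares close to those 4 and 3 of 11. Of these 11, 8 had a consensus Zbtb11 peak at the promoter, against 28.1% of all genes tested. Consensus peaks were found at 4 of 16 promoters of the other mitochondrial machinery, 25.0%, which is near that share.

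Among the proteins that carry the clusters, Ndufs7 was lower in the Zbtb11 KO. It encodes a subunit of respiratory complex I that holds an iron-sulfur cluster. Its levels were 37.4, 42.0 and 39.9 CPM in the EtOH control, 18.5, 18.9 and 20.1 CPM in the Zbtb11 KO and 40.0, 38.9 and 39.2 CPM in the 4OHT control. The Zbtb11 KO libraries lay far below both controls, which overlapped, with a log2 fold change of -1.05 (SE 0.080, adjusted p = 0.000177) against the EtOH control and -1.04 against the 4OHT control (adjusted p = 8.43e-05). It was the only one of 10 iron-sulfur proteins of the respiratory chain and TCA cycle to pass there against the EtOH control, as 0.899% of all genes did. Its promoter had a peak in both lists and none in the coverage table. With the block, 1, 2 and 2 of the 10 passed in the Zbtb11 KO and the 4OHT control against the EtOH control and between them, where 2.25%, 33.6% and 34.9% of all genes did. Of 26 other iron-sulfur proteins 0 passed against the EtOH control without the block. Of all genes 0.899% did so in the Zbtb11 KO and 4.06% in the 4OHT control. With the block 1 of the 26, Cdk5rap1, passed in the Zbtb11 KO, against 2.25% of all genes. In the 4OHT control 8 of 26 passed with the block, near the 33.6% of all genes. Cdk5rap1 modifies mitochondrial transfer RNAs and carries iron-sulfur clusters. It had 23.1, 30.2 and 28.9 CPM in the EtOH control, 12.4, 18.7 and 17.2 CPM in the Zbtb11 KO and 20.5, 23.5 and 23.1 CPM in the 4OHT control. The Zbtb11 KO lay below both controls, by a log2 fold change of -0.77 (SE 0.164, adjusted p = 0.11, and 1.06e-06 with the block) against the EtOH control and -0.47 (adjusted p = 0.146, and 0.000178 with the block) against the 4OHT control. The 4OHT control was itself lower than the EtOH control under the block, by -0.30 (adjusted p = 0.00632, from 0.404 without it). The promoter peak of Cdk5rap1 had a coverage of 605, rank 336 of 7500, against ranks of 1631 for Nfs1 and 3694 for Iscu. Rtel1, of the same list, had a stronger peak, with a coverage of 659 and rank 258. Its log2 fold change in the Zbtb11 KO against the EtOH control was 0.03 (SE 0.27). Whether peak strength goes with the response to the deletion was not tested.

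**Figure D5:**
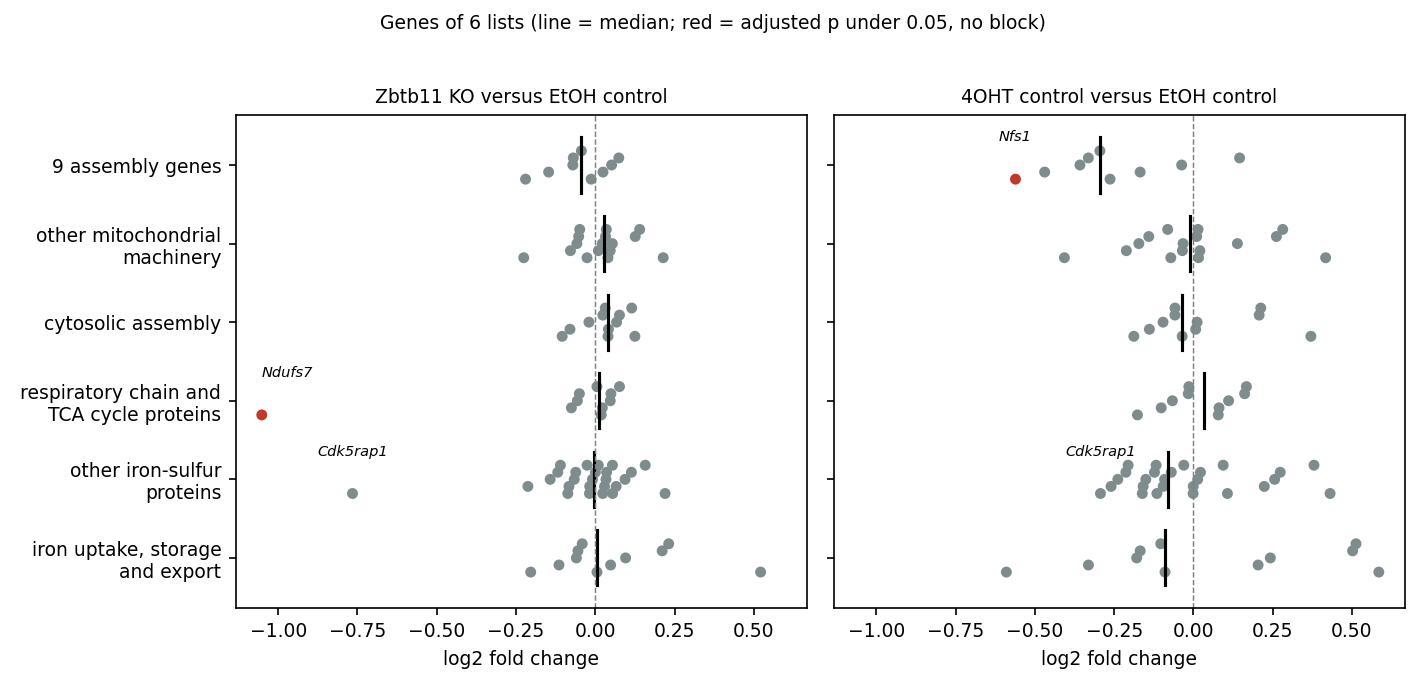
Log2 fold change (horizontal axes) of the genes of 6 lists, one point per gene, in the Zbtb11 KO and in the 4OHT control, each against the EtOH control, with the median of each list and with genes of adjusted p under 0.05 in red. In the Zbtb11 KO the 9 assembly genes spread around 0 and Ndufs7 lies at -1.05, and in the 4OHT control the median of the 9 is -0.30 and those of the other lists lie between -0.09 and 0.03.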

How the data were processed

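RNA-seq was performed by the authors on ribosomal RNA-depleted, directional libraries. Reads were trimmed, aligned with STAR and counted per gene with HTSeq (strand setting not given in the sources used here), and the deposited values are raw counts. ChIP-seq reads were aligned to mm9 with Bowtie 1.1.2, peaks were called with MACS2 across replicates, and the authors used DiffBind for the deposited normalised read coverage of consensus peaks. Input libraries were not used. Rows naming no gene were left out, among them 25.3 to 31.6% of reads assigned to no feature.

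Counts were tested with edgeR 4.0.16 in R 4.3.3 (TMM, more than 1 CPM in at least 3 libraries, quasi-likelihood F test over all 9 libraries, Benjamini-Hochberg adjustment over 14346 genes, threshold 0.05). Intervals are 95%. DESeq2 1.42.0 was an alternative, the fit was tested on simulated data, and sequences were read with pysam 0.24.0 and copies sought with BLAST 2.17.0. Libraries with the same replicate number deviated together (r of 0.43 to 0.82 over all 9 pairs, against -0.753 to 0.526 over 18 other pairs), so the number was taken to pair them and the fit with the replicate block is given where it changes a call. The pairing comes from the labels' numbers. The 9 genes and the gene lists were chosen with earlier results of these data known. Named genes were the 9, genes of the other lists past the threshold with or without the block (at most 10 per list), genes starting within 1 kb of a member, the 3 genes most alike over the 9 libraries, and Zbtb11. A further gene of the mitochondrial machinery is not reported here. No pair of RNA libraries held identical counts.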

Additional observations from a re-analysis of the deposited data

How the results depend on the processing

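Alternatives were scaling by library size, DESeq2, no filter or a filter at 5 CPM, edgeR's newer quasi-likelihood form, a fit of 2 groups alone, the replicate block and leaving out each replicate, plus the replicate block without replicate 1, which was chosen after seeing the data. No member passed in the Zbtb11 KO against the EtOH control under any of them. All genes called there numbered 129, and 323 with the replicate block, 322 with the replicate block without replicate 1 and 13 to 212 with a replicate left out. In the 4OHT control against the EtOH control 583 genes were called, and 1187 with DESeq2, 171 in the groups compared alone, 4816 with the replicate block, 3914 with the block without replicate 1 and 13 to 2420 with a replicate left out. Members called went from 1 to 2, 0, 6, 4 and 0 to 4 in that order. In the Zbtb11 KO against the 4OHT control 925 genes were called, and 1469 with DESeq2, 570 in the groups compared alone, 5010 with the block, 4174 with the block without replicate 1 and 82 to 2645 with a replicate left out. Members called went from 1 to 4 with the block, 2 with the block without replicate 1 and 0 to 2 with a replicate left out. Promoters of members with a peak numbered 2 in the coverage table and 4 in both lists. The cause of these changes was not tested.

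Directions turned for values near 0. In the Zbtb11 KO against the EtOH control, leaving out a replicate gave -0.1041 to 0.0086 for Lyrm4, -0.0455 to 0.1437 for Isca1, -0.0695 to 0.2712 for Glrx5, -0.0357 to 0.0281 for Nfu1 and -0.1479 to 0.0097 for Bola3. Isca1 also gave -0.0447 with the block without replicate 1, and Nfu1 0.026 when scaled by library size. In the 4OHT control Glrx5 gave -0.1585 to 0.1075. Of 99 values per comparison, 92, 83 and 92 kept direction and side of the threshold in the order above. Depth limits Lyrm4 most, with 146 to 288 counts per library.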

Other observations

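Iron handling was described from a list of 12 genes for uptake, storage and export, of which 11 were tested. None passed in the Zbtb11 KO or the 4OHT control against the EtOH control without a block (edgeR), where 0.899% and 4.06% of all genes did. Fth1, the ferritin heavy chain that stores and oxidises iron, had 382, 414 and 444 CPM in the EtOH control, 419, 432 and 476 CPM in the Zbtb11 KO and 338, 310 and 338 CPM in the 4OHT control. Its 4OHT control libraries lay below all others. It passed as higher in the Zbtb11 KO than in the 4OHT control, by a log2 fold change of 0.43 (adjusted p = 0.0184, edgeR). That was 1 of 11 passing there, against 2.73% of all genes higher and 6.45% in either direction. With the replicate block 5 of 11 passed in the 4OHT control against the EtOH control, in both directions, beside 33.6% of all genes. Fth1 (-0.33), the endosomal iron reductase Steap3 (-0.60) and the ferritin autophagy receptor Ncoa4 (-0.18) were lower, and Ftl1 (0.48), the ferritin light chain, and Fbxl5 (0.25), the iron-sensing ubiquitin ligase subunit, were higher. Ftl1 had 462, 271 and 249 CPM in the 4OHT control against 282, 230 and 176 CPM in the EtOH control, and replicate 1 was its highest library in each group. Without replicate 1 it gave 0.36 (adjusted p = 0.0364), and with all replicates and no block 0.51 (adjusted p = 0.354). Copies of the ferritin genes elsewhere in the genome were not sought. Promoters of 2 of 12 genes had a consensus Zbtb11 peak, against 28.1% of all genes tested.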
